A study of Mus musculus with 24 samples.

Results

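The genes described here were 9 genes of lymphocyte traffic, taken by name from the 21671 genes of the RNA-Seq tables and compared over 8 groups of splenic cells. They are the transcription factor Klf2, the sphingosine 1-phosphate receptors S1pr1 and S1pr4, the chemokine receptors Ccr7, Cxcr4 and Ccr6, the oxysterol receptor Gpr183, the cannabinoid receptor Cnr2 and the integrin chain Itgal. All 9 were present once in each of the 24 samples and all 9 passed the filter on low values in every comparison. They were well expressed, between 10.9 and 108 RPKM (reads per kilobase of exon, scaled to the total of exonic reads) in any sample, and lay within the top 8.53% of all genes by mean RPKM.

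Lymphocytes find their place in the spleen by following gradients of chemokines and lipids, and leave the tissue toward the high sphingosine 1-phosphate (S1P) of the blood. S1pr1 reads that lipid, and Klf2 is the transcription factor of quiescent lymphocytes known for driving S1pr1 expression in T cells. Ccr7 draws cells to the T zone, Gpr183 (EBI2) holds B cells at the outer follicle along an oxysterol gradient, Cnr2 takes part in keeping B cells in the marginal zone, and Cxcr4 answers the retention chemokine Cxcl12. Itgal is the alpha chain of LFA-1, the leukocyte integrin that binds Icam1.

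The mice were of strain C57/Bl6 and 8 weeks old, either Trp53+/+ (wild type) or Trp53-/-, with no restriction of the deletion to a cell type named, and each was either mock-treated or exposed to 7 Gy of whole-body ionizing radiation (IR) and killed 4 h later. B cells were the fraction bound by B220 MicroBeads on a magnetic column, and non-B cells were everything that ran through the column, a mixture enriched in T cells. Each of the 8 groups held 4 Trp53+/+ or 2 Trp53-/- samples, from as many mice per genotype and treatment by the study's methods. By those numbers the B and non-B fractions would share mice, but which B sample goes with which non-B sample is not given in the labels. The main fits took all samples as independent. The study asked how the response of splenic lymphocytes to IR depends on p53.

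The labels were first checked in the data. Trp53 itself was listed at 43.4 to 49.5 RPKM in Trp53+/+ mock samples and still at 21.6 to 25.0 RPKM in Trp53-/- mock samples, so its total did not test the genotype. Cdkn1a, the p53 target that encodes the cell cycle inhibitor p21, was at 69.6 to 97.8 RPKM in the irradiated Trp53+/+ samples and at or under 2.63 RPKM in every Trp53-/- sample. All 12 B cell markers of a fixed list had a higher mean in the B fraction, and all 14 T cell, 6 NK cell and 8 neutrophil markers a higher mean in the non-B fraction. The sum of the B cell markers was 1340 to 1556 RPKM in Trp53+/+ mock B cells and 430 to 695 RPKM in Trp53+/+ mock non-B cells, so the flow-through still held B cell RNA. A list of 10 macrophage, monocyte and dendritic cell markers did not separate the fractions. Its sum was 435 to 583 RPKM in Trp53+/+ mock B cells and 410 to 453 RPKM in Trp53+/+ mock non-B cells. The estimated depth was 4.74 to 10.9 M exonic reads per sample.

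One property of the values bears on genes as abundant as these. The authors kept only 1 read of each set of duplicates, and no gene in any sample exceeded the RPKM at which all 2000 start positions per kilobase of both strands would be filled, an upper bound estimated at 184 to 422 RPKM and approached to 72.8 to 95.2% by the most abundant gene of each sample. S1pr1 in Trp53+/+ mock B cells lay at 38.0 to 47.5% of that bound and at 8.38 to 12.6% after IR. If duplicates were judged by start and strand alone, differences between high and low levels would be compressed in the deposited values. Which rule was used was not tested, and values corrected for this bound are given where they change a statement.

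At rest, S1pr1 was the most abundant of the 9 genes in Trp53+/+ B cells, at 94.6 ± 6.26 RPKM (SD, n = 4), above the range of Cnr2, the next, at 74.5 ± 3.27. From Cnr2 down through Cxcr4, Ccr7, Ccr6, Gpr183 and Klf2 to S1pr4 at 54.9 ± 3.27 each gene overlapped in range with the next. Itgal was lowest, at 48.6 ± 1.18 RPKM, and did not overlap with S1pr4. In Trp53+/+ non-B cells S1pr1 again led with 84.7 ± 18.3 RPKM, overlapping with Ccr7 (81.8 ± 20.5) and Itgal (81.2 ± 4.38), and the order ended with Cnr2 (37.4 ± 1.66) and, without overlap, Ccr6 (19.9 ± 3.51).

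**Figure D1:**
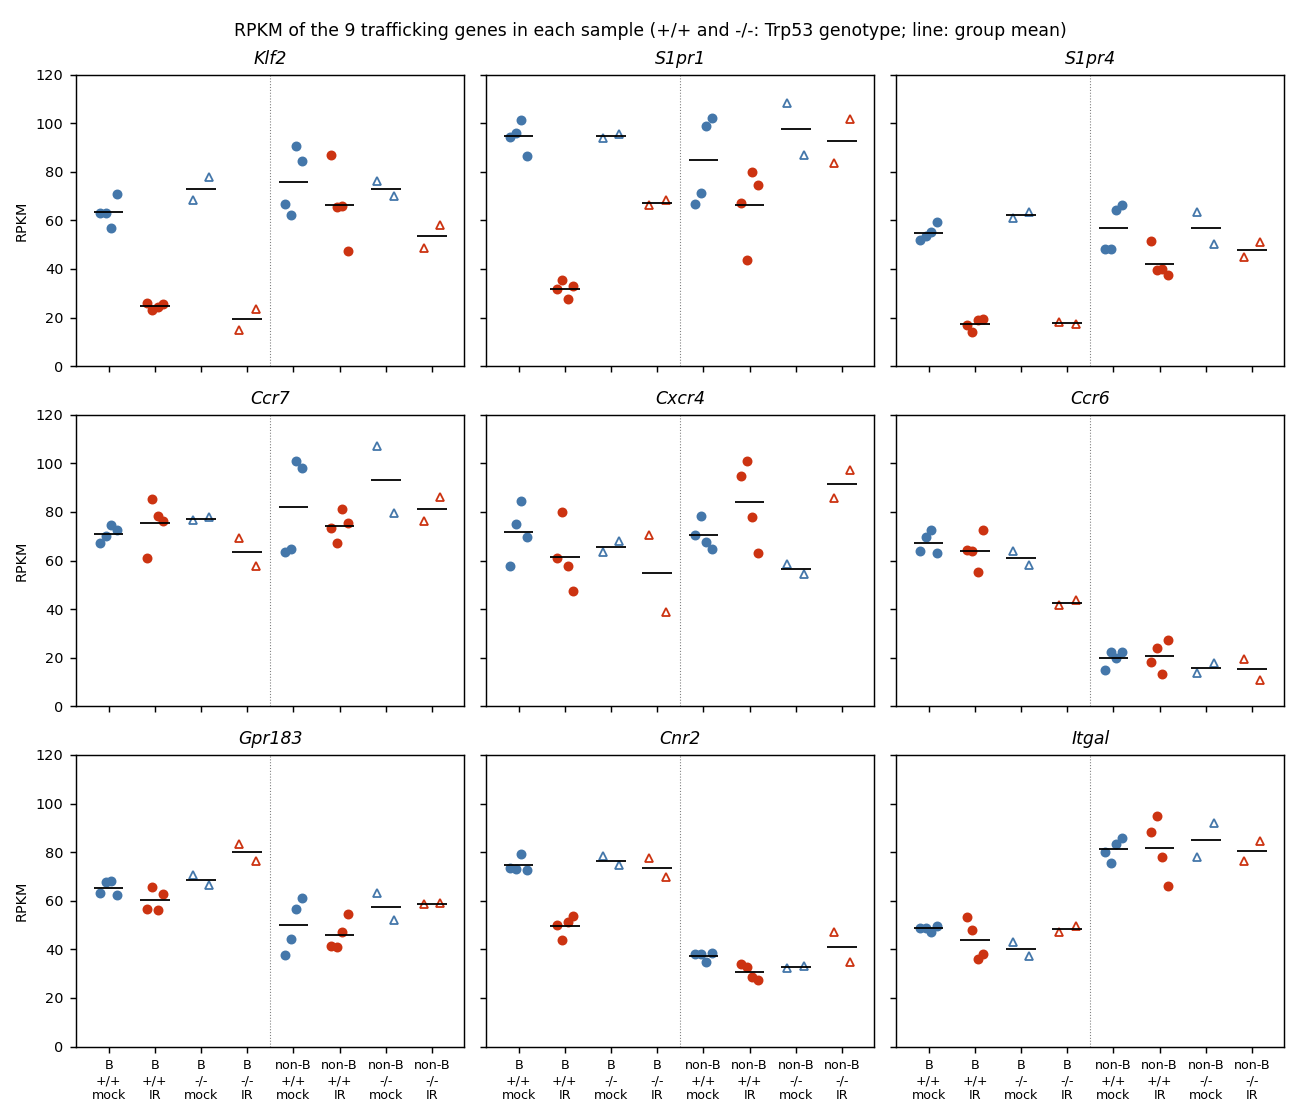
RPKM of each of the 9 genes (linear axis from 0) in each of the 24 samples, by cell type, Trp53 genotype and treatment, with filled circles for Trp53+/+, open triangles for Trp53-/-, blue for mock, red for IR and a line at each group mean. Klf2 and S1pr4 drop in irradiated B cells of both genotypes (means of 24.8 and 17.5 RPKM in Trp53+/+), S1pr1 drops to 31.9 in Trp53+/+ and to 67.3 RPKM in Trp53-/- B cells, and in Trp53+/+ non-B cells the mock and irradiated samples of these 3 genes overlap.

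The first question was what IR did to these genes in B cells with p53. Klf2, S1pr1, S1pr4 and Cnr2 fell and none of the 9 rose. A gene counts as called here at a Benjamini-Hochberg adjusted p under 0.05 from limma, taken over all genes tested, with a log2 fold change beyond 0.58 in either direction. The 4 of 9 called compare with 24.7% of all 13821 genes called in either direction and 12.2% called lower. The mock and irradiated samples of these 4 genes did not overlap, as in 46.2% of all genes. The median log2 fold change of the 9 genes was -0.23, against 0.01 over all genes tested. In these bulk samples a lower value can come from less RNA per cell or from fewer of the cells that carry it, and these cannot be told apart.

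Klf2 lies on chromosome 8 at 74842932 to 74845555 of the plus strand (mm9, as are the other gene positions below), and S1pr4 on chromosome 10 at 80961223 to 80962452 of the minus strand. Their upstream sequences are shown because these were the 2 members that fell past the rule in B cells of both genotypes. Each is the 250 bases before the RefSeq start site (GRCm38.p6), 5′ to 3′ on the gene's strand, with capitals at the letters CACCC or their reverse complement GGGTG, the core of the sites that Klf factors bind.
Klf2, chr8:72318812-72319061, plus strand: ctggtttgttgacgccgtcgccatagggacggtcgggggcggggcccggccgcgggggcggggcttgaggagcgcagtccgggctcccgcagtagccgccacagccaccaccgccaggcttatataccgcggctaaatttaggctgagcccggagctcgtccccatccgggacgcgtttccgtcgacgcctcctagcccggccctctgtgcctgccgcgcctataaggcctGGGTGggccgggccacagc
S1pr4, chr10:81500138-81500387, minus strand: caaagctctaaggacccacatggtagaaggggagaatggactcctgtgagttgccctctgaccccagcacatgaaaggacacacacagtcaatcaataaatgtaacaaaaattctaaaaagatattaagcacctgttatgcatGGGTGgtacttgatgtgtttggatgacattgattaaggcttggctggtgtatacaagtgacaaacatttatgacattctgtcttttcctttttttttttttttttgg
Each window held 1 such match, searched on both strands. So did the window of Cxcr4, which was not called in irradiated B cells of either genotype, while those of Cnr2, Gpr183 and Ccr6 held none. A match is a description of the letters, and it was common, since 52.0% of all 32851 windows of this length held at least 1. The FOXO core GTAAACA, present in 3.17% of windows on either strand, was in none of the 8 windows of the 6 members in the table, which are Cxcr4, Cnr2, Klf2, S1pr4, Gpr183 and Ccr6. Ccr7, S1pr1 and Itgal had no entry.

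Klf2 was at 63.1, 63.0, 57.0 and 70.8 RPKM in the Trp53+/+ mock B cell samples and at 25.9, 23.2, 24.5 and 25.4 RPKM after IR. Every irradiated sample was below every mock sample, and the irradiated values were close together. The mean fell by 61.0%, with a log2 fold change of -1.34 ± 0.11 (SE, adjusted p = 1.12e-06 by limma). In Trp53-/- B cells Klf2 was at 68.3 and 77.6 RPKM in mock and at 15.1 and 23.4 RPKM after IR, again without overlap. There the log2 fold change was -1.92 ± 0.16 (adjusted p = 3.41e-06 by limma). The difference between the genotypes, Trp53+/+ minus Trp53-/-, was 0.59 on the log2 scale with a 95% interval of 0.16 to 1.01, and it did not pass the threshold (adjusted p = 0.0558 by limma). Over the alternatives it ranged from 0.28 to 0.89 and passed in 4 of 23.

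S1pr4, which encodes an S1P receptor of hematopoietic cells, behaved much like Klf2 in B cells. It was at 51.8, 53.4, 55.0 and 59.4 RPKM in Trp53+/+ mock samples and at 17.1, 14.3, 18.9 and 19.6 RPKM after IR. In Trp53-/- B cells it was at 60.9 and 63.6 RPKM in mock and at 18.04 and 17.5 RPKM after IR. Neither pair of groups overlapped, and irradiated S1pr4 had the lowest mean of the 9 genes in B cells of both genotypes, overlapping with Klf2 in Trp53-/-. The log2 fold change was -1.63 ± 0.09 in Trp53+/+ (adjusted p = 2.33e-08 by limma) and -1.78 ± 0.12 in Trp53-/- (adjusted p = 1.37e-06 by limma). The genotype difference was 0.15 with a 95% interval of -0.18 to 0.47 (adjusted p = 0.547 by limma).

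S1pr1, the egress receptor itself (chromosome 3, 115413351 to 115417973, minus strand), was the member whose IR response differed most between the genotypes in B cells. It was at 94.5, 96.0, 101 and 86.4 RPKM in Trp53+/+ mock samples and at 31.7, 35.4, 27.5 and 33.1 RPKM after IR. In Trp53-/- B cells it was at 93.8 and 95.5 RPKM in mock and at 66.2 and 68.3 RPKM after IR. The mock values of both genotypes overlapped, whereas the lowest irradiated Trp53-/- sample, at 66.2 RPKM, was well above the highest irradiated Trp53+/+ sample, at 35.4 RPKM. The log2 fold change was -1.56 ± 0.08 in Trp53+/+ (adjusted p = 1.00e-08 by limma), and the mean fell by 66.2%. In Trp53-/- it was -0.49 ± 0.11, with an adjusted p of 0.00304 by limma but short of the fold threshold, and the mean fell by 28.9%. The genotype difference was -1.07 ± 0.13 on the log2 scale (95% interval -1.35 to -0.78, adjusted p = 0.000177 by limma). Corrected for the upper bound on RPKM, the responses were -1.82 and -0.62, and S1pr1 was then called in Trp53-/- B cells too, with an unchanged order of the genotypes and a difference of -1.20 ± 0.14.

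Cnr2 (chromosome 4, 135451309 to 135476122, plus strand) fell less, and passed the test in Trp53+/+ B cells but not in Trp53-/- B cells. It was at 73.4, 72.9, 79.4 and 72.5 RPKM in Trp53+/+ mock B cells and at 50.0, 43.7, 51.4 and 53.9 RPKM after IR, without overlap. In Trp53-/- B cells it was at 78.3 and 74.6 RPKM in mock and at 77.5 and 69.8 RPKM after IR, where the groups overlapped. The log2 fold change was -0.58 ± 0.07 in Trp53+/+ (adjusted p = 2.06e-05 by limma) and -0.05 ± 0.10 in Trp53-/-. The genotype difference was -0.53 ± 0.12 (adjusted p = 0.0100 by limma). The fold in Trp53+/+ cells stood at the edge of the rule. It dropped below it in 6 of 24 alternatives, among them -0.50 without the irradiated replicates 1 and 2 and -0.45 with the detection of silent receptor genes as a covariate, with adjusted p of at most 0.000226 in those 6. Its genotype difference lost its call without Trp53-/- mock replicate 2 (adjusted p = 0.0557 by limma) or without Trp53-/- IR replicate 1 (adjusted p = 0.0620 by limma).

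The 250 bases before both RefSeq start sites of Cnr2 (GRCm38.p6, plus strand) are shown because they are the only members' windows with a p53 response element decamer, the unit of which a full p53 site holds a pair, searched on both strands. Capitals mark it.
Cnr2, upstream start, chr4:135894939-135895188: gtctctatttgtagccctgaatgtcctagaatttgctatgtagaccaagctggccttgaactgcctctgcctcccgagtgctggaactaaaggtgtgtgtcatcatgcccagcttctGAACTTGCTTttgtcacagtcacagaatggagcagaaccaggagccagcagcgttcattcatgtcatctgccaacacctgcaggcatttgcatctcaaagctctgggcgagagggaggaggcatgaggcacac
Cnr2, downstream start, chr4:135911430-135911679: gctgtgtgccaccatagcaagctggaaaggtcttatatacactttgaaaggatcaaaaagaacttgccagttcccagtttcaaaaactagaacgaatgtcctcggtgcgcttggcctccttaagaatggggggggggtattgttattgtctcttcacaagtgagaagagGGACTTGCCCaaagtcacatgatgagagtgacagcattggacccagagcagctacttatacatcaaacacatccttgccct
The decamer occurred in 7.13% of all windows, so it is a description of these letters and no sign of binding.

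The plus-strand gene Ccr6 (chromosome 17, 8429077 to 8449992), the receptor of Ccl20 on B cells, went the other way by genotype. In Trp53+/+ B cells it was at 63.8, 69.8, 72.6 and 63.3 RPKM in mock and at 64.2, 63.8, 55.3 and 72.6 RPKM after IR. In Trp53-/- B cells it was at 63.9 and 58.3 RPKM in mock and at 41.8 and 43.6 RPKM after IR. The Trp53+/+ groups overlapped and the Trp53-/- groups did not. The log2 fold change was -0.08 ± 0.08 in Trp53+/+ and -0.51 ± 0.11 in Trp53-/- (adjusted p = 0.00329 by limma, short of the fold threshold). The difference of 0.43 ± 0.14 only just passed (adjusted p = 0.0472 by limma) and lost its call in 16 of 23 alternatives, with an adjusted p of 0.0815 by limma with the replicate number as a block and 0.0563 after the correction for the upper bound on RPKM.

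In the test of the genotype difference in B cells, 3 of 9 genes thus passed, against 18.8% of all genes tested. Only that of S1pr1 passed in all 23 alternatives. Gpr183 (-0.33 ± 0.11, adjusted p = 0.0538 by limma) was at 56.3 to 65.5 RPKM in irradiated Trp53+/+ and at 76.6 to 83.3 RPKM in irradiated Trp53-/- B cells, ranges that did not overlap. Its difference passed in 6 alternatives, among them the correction for the upper bound on RPKM (-0.43 ± 0.12, adjusted p = 0.0237 by limma). The number that passed was between 1 and 4 when single samples were left out. Without Trp53-/- mock replicate 2 or IR replicate 1, S1pr1 was the 1 gene left. It was 2 without Trp53-/- mock replicate 1, Trp53+/+ mock replicate 1 or 2 or Trp53+/+ IR replicate 4, and 4 without Trp53+/+ mock replicate 4 or IR replicate 1.

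Ccr7 (chromosome 11, 99005510 to 99016391, minus strand), Cxcr4 (chromosome 1, 130484776 to 130488870, minus strand), Gpr183 (chromosome 14, 122351553 to 122364415, minus strand) and Itgal (chromosome 7, 134439774 to 134478651, plus strand) did not pass in irradiated B cells of either genotype. In Trp53+/+ B cells Ccr7 ranged over 67.2 to 74.5 RPKM in mock and 61.0 to 85.5 RPKM after IR, with a log2 fold change of 0.07 (95% interval -0.13 to 0.28). Cxcr4 varied most between samples, over 57.9 to 84.3 RPKM in mock and 47.6 to 79.9 RPKM after IR, and its interval of -0.64 to 0.17 does not exclude a fall past the threshold. Gpr183 and Itgal had intervals of -0.25 to 0.02 and -0.39 to 0.07. The order of the genes in irradiated Trp53+/+ B cells was therefore led by Ccr7 at 75.3 ± 10.3 RPKM, whereas S1pr1, first at rest, came 7th, ahead of Klf2 and S1pr4. In Trp53-/- B cells the log2 fold changes were -0.29 for Ccr7 (95% interval -0.58 to 0.00) and -0.33 for Cxcr4 (-0.90 to 0.25). Those of Gpr183 and Itgal were 0.22 (0.02 to 0.42) and 0.26 (-0.07 to 0.58), so changes in that genotype were not excluded.

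In Trp53-/- B cells, 2 of 9 genes, Klf2 and S1pr4, passed the rule for IR, against 24.3% of all genes and 11.2% called lower. With 2 samples a group, 7 of the 9 did not overlap between mock and IR, and neither did 71.5% of all genes. In the correction for the upper bound on RPKM, S1pr1 and Ccr6 (-0.58 ± 0.13) joined them. Before IR, none of the 9 was called by limma for a difference between the genotypes, in B cells or in non-B cells, and none had an unadjusted p under 0.05, where 0.0506% and 0.0428% of all genes were called. The widest 95% interval of that difference in B cells was that of Cxcr4, from -0.61 to 0.38 on the log2 scale. In non-B cells it was that of Ccr6, from -0.95 to 0.30. With 2 Trp53-/- samples small differences were thus not detectable, and for some members differences past the fold threshold were not excluded.

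**Figure D2:**
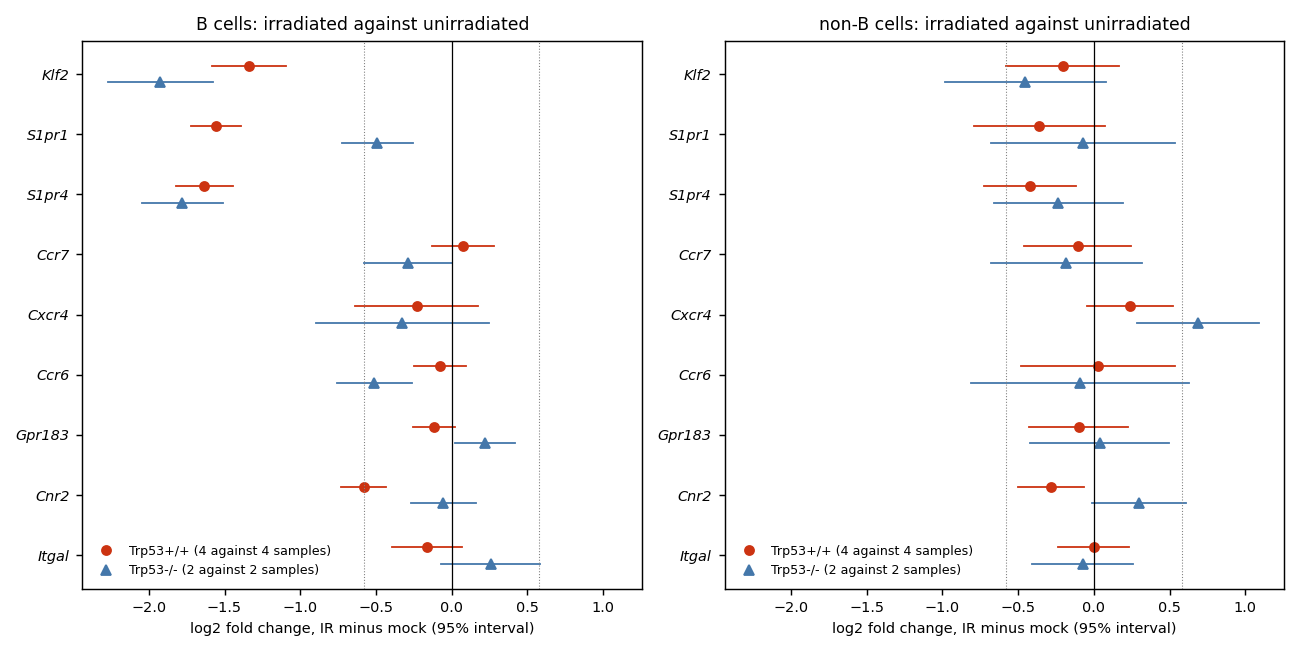
Log2 fold change of each gene, IR minus mock, with its 95% interval from limma, for Trp53+/+ (red circles) and Trp53-/- (blue triangles) in B cells (left) and non-B cells (right), with dotted lines at the threshold of 0.58 in either direction. In B cells Klf2 and S1pr4 lie beyond it in both genotypes (-1.34 and -1.92, -1.63 and -1.78), S1pr1 lies at -1.56 in Trp53+/+ and -0.49 in Trp53-/-, and in non-B cells every Trp53+/+ estimate lies within the dotted lines.

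Some of what surrounds these values moved with IR as well. The share of 1440 olfactory and vomeronasal receptor genes listed above 0, genes that lymphocytes do not use, was 5.42 to 9.31% in mock samples and 36.7, 47.3, 7.01 and 15.97% in the irradiated Trp53+/+ B cell replicates 1 to 4. Without replicates 1 and 2, Klf2, S1pr1 and S1pr4 kept log2 fold changes of -1.32, -1.63 and -1.49 and their calls, so 3 genes were called in place of 4. The sum of 8 erythroid markers was 55.1 to 103 RPKM in Trp53+/+ mock and 27.7 to 34.2 RPKM in irradiated B cells, and 41.9 to 134 and 55.3 to 93.8 RPKM in Trp53-/-. The sum of 6 marginal zone B cell markers was 298 to 375 and 271 to 300 RPKM in Trp53+/+, and 295 to 314 and 256 to 263 RPKM in Trp53-/- B cells. The sum of 12 B cell markers was 1340 to 1556 and 1183 to 1317 RPKM in Trp53+/+, and 1365 to 1431 and 1181 to 1258 RPKM in Trp53-/- B cells, mock and IR in that order. The sum of 6 cycling markers was 53.6 to 124 and 42.4 to 59.4 RPKM in Trp53+/+, where 5 of the 6 were called lower, and 66.4 to 66.9 and 72.5 to 82.6 RPKM in Trp53-/-. The sum of 8 stromal and endothelial markers was lower after IR without overlap in both genotypes. It was at 73.6 to 78.2 and 46.8 to 63.0 RPKM in Trp53+/+ and at 78.7 to 80.7 and 45.2 to 56.9 RPKM in Trp53-/-. Only 5 of these 8 were tested in B cells, and 1 was called lower in each genotype, against 12.2% and 11.2% of all genes. In Trp53+/+ mock non-B cells the sum was 38.2 to 55.8 RPKM, and whether it follows stromal cells was not tested. The part of these shifts in the results was not tested.

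The same question in non-B cells gave no called gene among the 9 in Trp53+/+ cells by limma, where 9.85% of all 14018 genes were called and the silent receptor genes were listed above 0 at 8.61 to 51.3% in the irradiated samples. At an unadjusted p under 0.05 there were 2, S1pr4 and Cnr2. S1pr4 was at 48.3, 48.0, 64.1 and 66.4 RPKM in mock and at 51.4, 39.5, 40.02 and 37.3 RPKM after IR, and the groups overlapped through irradiated replicate 1. Its log2 fold change was -0.42 ± 0.14 (adjusted p = 0.0535 by limma). Cnr2 was at 37.9, 38.1, 34.9 and 38.6 RPKM in mock and at 34.2, 32.8, 28.6 and 27.4 RPKM after IR. It was the 1 gene of the 9 whose groups did not overlap, as in 22.1% of all genes, with a log2 fold change of -0.28 ± 0.10 (adjusted p = 0.0702 by limma).

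Klf2 and S1pr1 overlapped between mock and IR in Trp53+/+ non-B cells. Their log2 fold changes were -0.21 (95% interval -0.58 to 0.17) and -0.36 (-0.79 to 0.07). The interval of S1pr1 does not exclude a fall past the threshold, and that of Klf2 reaches it. Klf2 was at 66.6, 62.3, 90.4 and 84.2 RPKM in mock and at 87.0, 65.4, 65.8 and 47.3 RPKM after IR. S1pr1 was at 66.6, 71.4, 98.7 and 102 RPKM in mock and at 67.3, 43.8, 80.0 and 74.4 RPKM after IR. Both genes, like S1pr4, Ccr7, Gpr183 and Itgal, were lower in mock replicates 1 and 2 than in 3 and 4. Those 2 samples had sums of 8 erythroid markers of 348 and 334 RPKM, against 117 and 132 RPKM in replicates 3 and 4 and 25.0 to 59.5 RPKM in the irradiated samples. Their sums of 6 cycling markers were 292 and 272 RPKM against 84.6 and 101, and their sums of 14 T cell markers 705 and 737 RPKM against 1027 and 1006. Without these 2 samples S1pr4 was called lower (-0.64, adjusted p = 0.0129 by limma), and the part of these marker shifts was not tested.

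In Trp53-/- non-B cells no member was called by limma either, against 0.442% of all genes, and 1 had an unadjusted p under 0.05. That was Cxcr4, at 58.5 and 54.7 RPKM in mock and 85.8 and 97.2 RPKM after IR, with a log2 fold change of 0.69 ± 0.18 (adjusted p = 0.110 by limma). In Trp53+/+ non-B cells Cxcr4 was at 70.7, 78.3, 67.8 and 64.7 RPKM in mock and at 94.8, 101, 77.8 and 63.2 RPKM after IR (0.24 ± 0.13). No member passed the test of the genotype difference in non-B cells, against 7.35% of all genes. Cnr2 had the lowest adjusted p there (0.0656 by limma) with a difference of -0.58 ± 0.17.

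Whether the cell types answered IR differently was tested directly, as the difference of the 2 responses in Trp53+/+ cells. Klf2 (-1.13 ± 0.21), S1pr1 (-1.20 ± 0.24) and S1pr4 (-1.21 ± 0.18) fell more in B cells than in non-B cells, with adjusted p of 0.000836, 0.00139 and 0.000143 by limma. They were 3 of 9, against 28% of all 14598 genes in either direction and 12.6% lower in B cells, and passed in all 28 alternatives. Cnr2 (-0.30 ± 0.11, adjusted p = 0.0531 by limma) passed in 9 of 28 alternatives. Among these was the correction for the upper bound on RPKM (-0.39 ± 0.12, adjusted p = 0.0211 by limma).

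Levels were then compared between B and non-B cells. In Trp53+/+ mock samples 3 of 9 genes were called and 6 were not, against 24.6% of all genes called. Ccr6 was higher in B cells, with non-B samples at 14.99, 22.5, 19.9 and 22.3 RPKM and a log2 difference of 1.75 ± 0.17 (adjusted p = 5.61e-07 by limma). Cnr2 was higher by 0.99 ± 0.08 (adjusted p = 6.75e-08 by limma), and Itgal was lower (-0.73 ± 0.12, adjusted p = 9.20e-05 by limma). Itgal was at 48.9, 48.8, 47.0 and 49.8 RPKM in B cells and at 80.1, 75.6, 83.5 and 85.6 RPKM in non-B cells. The same 3 genes were called in Trp53-/- mock samples (1.93 ± 0.24, 1.20 ± 0.14 and -1.07 ± 0.11), against 17.1% of all genes. Gpr183 was higher in every Trp53+/+ mock B cell sample than in any non-B sample (0.41 ± 0.13, adjusted p = 0.0171 by limma) without reaching the fold threshold. The non-B fraction still held B cell marker RNA, and its part in the non-B levels of Ccr6 and Cnr2 was not tested.

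After IR, 6 of 9 genes differed between Trp53+/+ B and non-B cells, against 35.6% of all genes. To Ccr6 (1.64 ± 0.17), Cnr2 (0.69 ± 0.08) and Itgal (-0.89 ± 0.12) were added Klf2 (-1.37 ± 0.15), S1pr1 (-1.01 ± 0.17) and S1pr4 (-1.24 ± 0.13), which were near equal in both fractions at rest, with 95% intervals of -0.55 to 0.07, -0.17 to 0.53 and -0.30 to 0.23. In irradiated Trp53-/- cells 6 of 9 were called too, against 26.2% of all genes, with Cxcr4 (-0.80 ± 0.24, adjusted p = 0.0300 by limma) in the place of S1pr1 (-0.45 ± 0.13). Irradiated Trp53-/- B cell samples held 70.7 and 38.7 RPKM of Cxcr4, and its call was lost in 7 of 18 alternatives, with a log2 difference of -0.37 without the second of them.

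**Figure D3:**
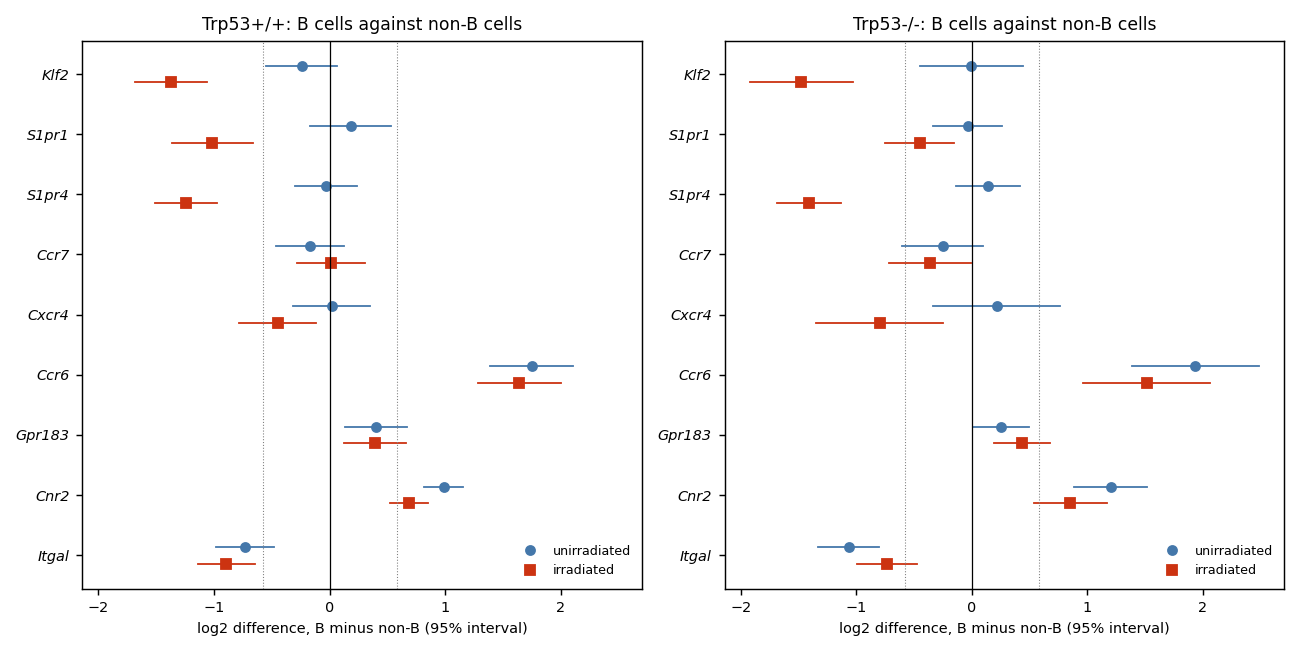
Log2 difference of each gene between B and non-B cells, B minus non-B, with its 95% interval from limma, in Trp53+/+ (left) and Trp53-/- samples (right), for mock (blue circles) and IR (red squares). Ccr6 and Cnr2 lie to the right and Itgal to the left of 0 in all 4 comparisons, whereas Klf2 and S1pr4 move from near 0 in mock to -1.37 and -1.24 after IR in Trp53+/+ and to -1.48 and -1.41 in Trp53-/-.

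Over the 8 groups, each gene had its own order of levels. Klf2 was lowest in irradiated B cells of both genotypes, which overlapped with each other and were clear of the next group, irradiated Trp53-/- non-B cells at 53.5 ± 6.61 RPKM (n = 2), while all other neighbours overlapped. S1pr4 had the same 2 groups at the bottom, at 17.5 ± 2.37 (n = 4) and 17.8 ± 0.39 RPKM (n = 2). S1pr1 had 1 group clear of the rest, irradiated Trp53+/+ B cells, and Ccr6 had its 4 non-B groups below all B groups, with irradiated Trp53-/- B cells at 42.7 ± 1.23 RPKM (n = 2) apart from the other B groups. Cnr2 set the Trp53+/+ and Trp53-/- mock and irradiated Trp53-/- B cells, at 73.7 to 76.4 RPKM on average, above irradiated Trp53+/+ B cells at 49.8 ± 4.34. Itgal had all 4 non-B groups, at 80.6 to 85.1 RPKM on average, above all 4 B groups. Gpr183 was highest in irradiated Trp53-/- B cells, at 79.9 ± 4.74 RPKM (n = 2), clear of the next group. Ccr7 and Cxcr4 had no such break, each group overlapping with its neighbour in the order.

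The genes whose 8 group means most resembled a member, by the root mean square difference of centred log2 values among 13063 genes with a mean RPKM above 1, were as follows. Tldc2 (0.09) and Sorcs2 (0.11) were nearest to Klf2, Entpd5 (0.11) and Frmd7 (0.14) to S1pr1, and Slc26a11 (0.12) and Rasgrp2 (0.14) to S1pr4. Lpgat1 (0.08) and Hdac10 (0.09) were nearest to Cnr2, Lrrc16a (0.12) and Myo1e (0.20) to Ccr6, and Zfp109 (0.09) and Ly75 (0.09) to Itgal. For Ccr7, Cxcr4 and Gpr183, whose levels changed least, the nearest were AA388235 and Zfp212, Hspb9 and Pkd1, and Zfp160 and Iws1, at 0.04 to 0.12. Entpd5 had means of 19.4 RPKM in irradiated Trp53-/- and 9.42 RPKM in irradiated Trp53+/+ B cells, from 27.7 and 26.5 RPKM in mock. It was picked for likeness to S1pr1 over these same means, so the shared pattern is no separate result. Rasgrp2 encodes the exchange factor CalDAG-GEFI, which switches on the integrin activator Rap1.

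The members were then set among the other genes of traffic, in 8 lists. The median log2 fold change of the lists in irradiated Trp53+/+ B cells lay between -0.39 (G-protein signalling) and 0.18 (chemokine ligands), against 0.01 over all genes tested. Of the S1P axis, 12 genes were tested in B cells, and 1 rose and 4 fell in Trp53+/+ while 2 fell in Trp53-/-. Over all genes, 24.7% were called in Trp53+/+ and 24.3% in Trp53-/- B cells, and 12.2% and 11.2% were called lower. Spns2, the transporter that exports S1P, went from 15.96 ± 2.02 to 1.76 ± 0.30 RPKM in Trp53+/+ (-2.87 ± 0.13, adjusted p = 4.85e-09 by limma) and from 17.9 ± 0.42 to 2.47 ± 0.35 RPKM in Trp53-/- (-2.63 ± 0.18). It also fell in Trp53+/+ non-B cells, by 1.92 on the log2 scale. Sgpp1, an S1P phosphatase, rose from 27.4 ± 1.10 to 49.3 ± 4.19 RPKM in Trp53+/+ B cells (0.83 ± 0.07), and its genotype difference of 0.96 ± 0.11 passed (adjusted p = 0.000132 by limma). In Trp53+/+ non-B cells 3 of the 12 fell, where 9.85% of all genes were called, among them Sphk1, an S1P-producing kinase, from 15.01 ± 12.1 to 0.74 ± 0.22 RPKM, with mock samples spread over 4.605 to 30.2 RPKM.

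Of 17 chemokine receptor genes tested in B cells, 3 rose and 4 fell in Trp53+/+ and 1 fell in Trp53-/-, against 24.7% and 24.3% of all genes called. The scavenging receptor Ackr4 rose from 2.05 ± 0.55 to 4.67 ± 0.44 RPKM in Trp53+/+ B cells (1.04 ± 0.18), with a genotype difference of 1.23 ± 0.30 (adjusted p = 0.0151 by limma). Ackr2, another scavenger, fell from 18.9 ± 4.73 to 5.02 ± 0.86 RPKM in Trp53+/+ (-1.79 ± 0.19) and was called lower in Trp53-/- B cells too (-0.81 ± 0.26). Its genotype difference of -0.97 ± 0.32 did not pass (adjusted p = 0.0537 by limma). In Trp53+/+ non-B cells 4 of 19 rose and 1 fell, against 9.85% of all genes called, with Ccr8 going from 2.68 ± 0.43 to 9.34 ± 2.47 RPKM and Cxcr3, a receptor of effector T cells, from 30.5 ± 2.13 to 19.5 ± 2.51 RPKM. The ligand list had 9 genes tested, of which 1 rose in Trp53+/+ B cells (24.7% of all genes called) and 4 in Trp53+/+ non-B cells (9.85%). Ccl22, which draws Ccr4-bearing T cells, rose in B cells from 1.71 ± 0.11 to 12.8 ± 7.60 RPKM (2.42 ± 0.32) and in Trp53-/- from 1.20 ± 0.16 to 14.8 ± 3.26 RPKM (3.15 ± 0.45). Cxcl13, the B cell attractant of follicles, rose in Trp53+/+ non-B cells from 0.25 ± 0.11 to 7.95 ± 5.42 RPKM (3.27 ± 0.41). Ccl19 and Ccl21c, ligands of Ccr7, were listed at 0 in every sample, and Ccl20, the ligand of Ccr6, reached 0.29 RPKM. Ccl21a and Ccl21b had no entry among the genes listed, so their levels are not known.

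Of 21 integrin and selectin genes tested in B cells, 1 rose and 3 fell in Trp53+/+, and 1 rose and 5 fell in Trp53-/-, where 24.7% and 24.3% of all genes were called. Icam1, the ligand of LFA-1, rose from 33.2 ± 1.41 to 87.0 ± 4.79 RPKM in Trp53+/+ (1.38 ± 0.06) and from 31.5 ± 0.59 to 56.0 ± 2.33 RPKM in Trp53-/- B cells (0.82 ± 0.08), and the genotype difference passed (0.56 ± 0.10, adjusted p = 0.00198 by limma). Itgb7, the beta chain of the gut-homing integrin, fell from 59.5 ± 3.96 to 12.6 ± 2.67 RPKM in Trp53+/+ (-2.21 ± 0.13) and from 56.3 ± 4.41 to 14.96 ± 2.95 RPKM in Trp53-/- B cells (-1.89 ± 0.19). Of 14 genes of integrin activation, 3 fell in Trp53+/+ and 2 in Trp53-/- B cells, where 12.2% and 11.2% of all genes were called lower. Rasgrp2 went from 67.1 ± 3.28 to 17.2 ± 3.42 RPKM (-1.95 ± 0.11) and from 64.9 ± 0.60 to 23.7 ± 1.97 RPKM (-1.44 ± 0.16). In Trp53+/+ non-B cells 1 of 22 integrin and selectin genes rose, Icam1 (0.79 ± 0.07), and 1 fell, Icam4, an erythroid adhesion protein (-2.11 ± 0.59), against 9.85% of all genes called.

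Of 10 genes of the oxysterol and cannabinoid systems tested, 2 rose and 2 fell in Trp53+/+ B cells. In Trp53-/- B cells 2 rose and 1 fell, against 24.7% and 24.3% of all genes called. Gpr55, a lysolipid receptor, rose from 7.52 ± 2.18 to 17.8 ± 1.77 RPKM in Trp53+/+ B cells (1.24 ± 0.19) and from 8.38 ± 1.90 to 23.1 ± 1.50 RPKM in Trp53+/+ non-B cells (1.43 ± 0.14), and its genotype difference passed in B cells (1.24 ± 0.33, adjusted p = 0.0213 by limma). Gpr174, a receptor for lysophosphatidylserine, fell from 44.8 ± 2.00 to 23.2 ± 2.52 RPKM in Trp53+/+ B cells (-0.94 ± 0.07), with a genotype difference of -0.58 ± 0.12 (adjusted p = 0.00712 by limma). Ch25h, the enzyme that starts the making of the Gpr183 ligand, was never above 0.31 RPKM.

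Among 22 genes of G-protein signalling, 1 rose and 5 fell in Trp53+/+ B cells and 5 fell in Trp53-/- B cells, shares near the 24.7% and 24.3% of all genes. Rgs18, which shortens G-protein signals, rose from 13.3 ± 1.02 to 28.6 ± 5.35 RPKM in Trp53+/+ (1.06 ± 0.11), with a genotype difference of 1.38 ± 0.20 (adjusted p = 0.000556 by limma). Arrb1, a beta-arrestin that desensitizes such receptors, fell from 29.0 ± 0.58 to 7.27 ± 1.49 RPKM (-1.94 ± 0.18) and in Trp53-/- by 1.86 on the log2 scale. In Trp53+/+ non-B cells Rgs1 rose (0.76 ± 0.21) and Gna12 fell (-0.59 ± 0.14).

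Of 16 transcription factors of traffic and quiescence, 2 rose and 3 fell in Trp53+/+ B cells and 7 fell in Trp53-/- B cells. Of these 16, 6 passed the test of the genotype difference, all in the direction of a higher response with p53. Over all genes, 24.7% were called in Trp53+/+ B cells, 11.2% were called lower in Trp53-/- B cells and 18.8% passed for the genotype difference. Foxo3, a factor of quiescent lymphocytes, rose from 26.6 ± 2.46 to 66.2 ± 2.74 RPKM in Trp53+/+ (1.30 ± 0.07) and fell from 25.2 ± 1.66 to 14.7 ± 1.20 RPKM in Trp53-/- B cells (-0.76 ± 0.10), a difference of 2.06 ± 0.12 (adjusted p = 3.87e-07 by limma). Klf3, a relative of Klf2, fell alike, from 31.8 ± 2.93 to 14.4 ± 1.09 RPKM in Trp53+/+ (-1.12 ± 0.09) and from 32.1 ± 0.85 to 14.5 ± 2.89 RPKM in Trp53-/- B cells (-1.14 ± 0.13), with a difference of 0.02 ± 0.16. In non-B cells no gene of this list was called by limma in either genotype.

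**Figure D4:**
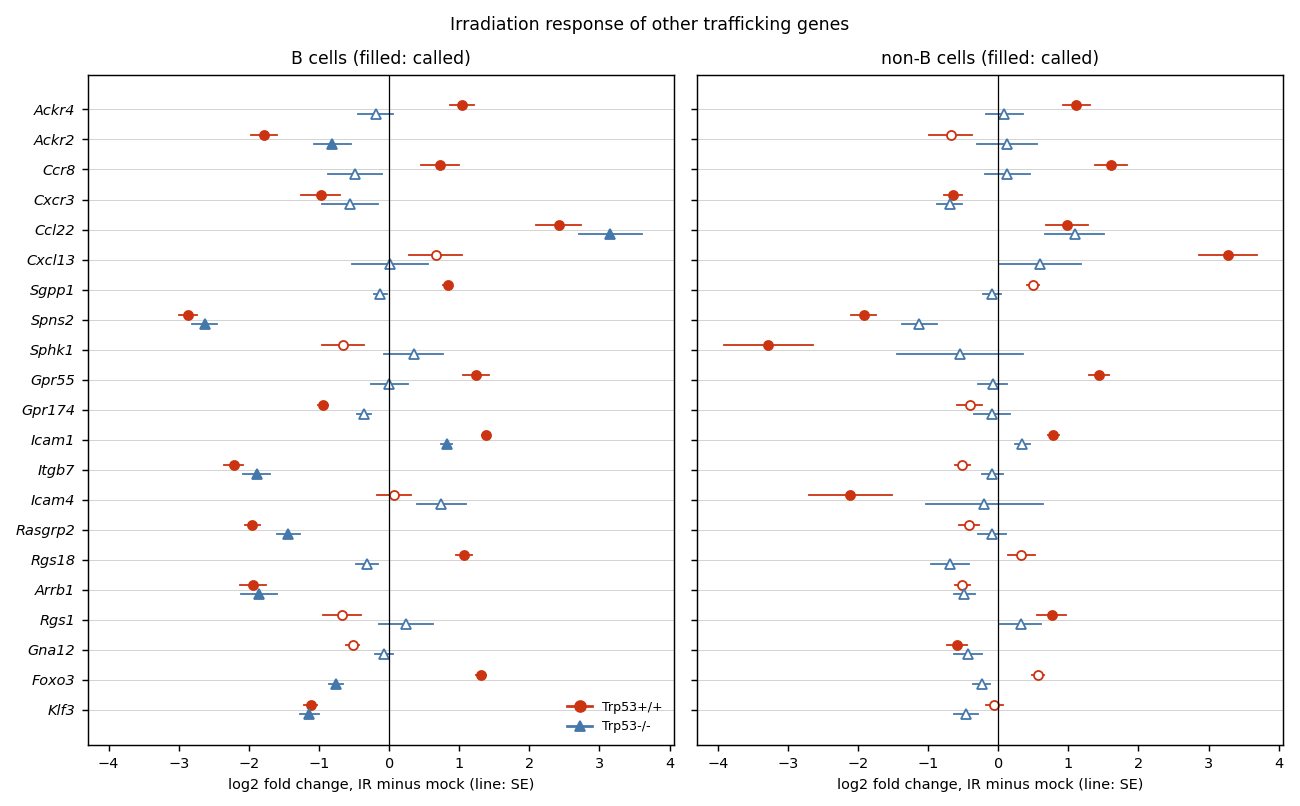
Log2 fold change, IR minus mock, with its SE, of the called gene with the largest change in each direction in each of the 8 lists of traffic genes, the 9 members left out, in B cells (left) and non-B cells (right), for Trp53+/+ (red circles) and Trp53-/- (blue triangles), filled where called. In B cells Spns2, Itgb7, Rasgrp2, Arrb1 and Klf3 fall in both genotypes, whereas Foxo3 lies at 1.30 in Trp53+/+ and at -0.76 in Trp53-/-.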

How the data were processed

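The authors deposited 1 table per sample with RPKM values, rounded to 3 decimals, of 21671 genes. As the study's methods and the submitters' processing notes state, low-quality bases (below 20) were masked, alignment to mm9 used TopHat (TopHat2 2.0.8 in the notes), duplicated reads were reduced to 1, and reads on UCSC genes were counted by featureCounts 1.4.5, so the deposited RPKM are reads per kilobase scaled to the total on exons. RNA was depleted of ribosomal RNA and the TruSeq v2 kit keeps no strand, so reads from a gene and an antisense partner cannot be told apart; no exon of another annotated gene overlapped a member.

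From these values, limma 3.58.1 (R 4.3.3; lmFit, contrasts.fit, eBayes with trend) was run on log2(RPKM + 0.5), a scale on which changes of low genes are understated. B cells and non-B cells were fitted apart (12 samples each), and Trp53+/+ (16) and Trp53-/- (8) samples apart for comparisons of cell types. Genes needed an RPKM above 1 in at least 1 Trp53+/+ sample of the fit (any sample in the Trp53-/- fit), and p-values were adjusted over all of them. Calls required an adjusted p below 0.05 together with a log2 fold change beyond 0.58 in size, or the adjusted p alone for a difference of responses. The tests were checked on simulated data. Python 3.11.15 (numpy 2.4.6, pandas 2.3.3, scipy 1.17.1, matplotlib 3.10.9) was used for the rest. Gene positions came from GENCODE vM1 (NCBIM37, mm9) and upstream sequences from RefSeq (GRCm38.p6), where 6 of the 9 members matched.

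The members and the gene lists were chosen with earlier results of these data known. Named beside the 9 members are the called gene of the largest change in each direction per list, members left out, in Trp53+/+ B and non-B cells, the 2 genes nearest in profile to each member, and Trp53 and Cdkn1a as checks. Entpd5, Ccl19, Ccl21c, Ccl20 and Ch25h were described further after their values were seen. Depth was estimated from the steps of low values: 61.2 to 71.6% of low values were whole reads to within 0.1, against 20% by chance, with lengths known for 91.9% of genes, so no count test was run. The upper bound on RPKM takes duplicates to be judged by start and strand alone, and would be higher if both ends of read pairs were used. No pair of libraries within a group had over 0.18% identical values among genes above 1 RPKM in both. Libraries of different groups were not compared in this way. Samples with the same replicate number deviated together in Trp53+/+ non-B cells, IR against mock (4 correlations of 0.15 to 0.33). In the other comparisons such correlations ran from -0.49 to 0.57. Mock and irradiated samples came from different mice, and the main fits used no pairing by number. The labels do not say which B and non-B samples came from the same spleen. Alternatives covered pseudocounts of 0.1 and 1, filters, median-ratio and quantile scaling, the replicate block, a covariate for silent receptor genes, no trend, left-out samples and, chosen after seeing the data, the correction for the upper bound and a crossed pairing.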

Additional observations from a re-analysis of the deposited data

Results flagged for a closer look

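Among 36 sets of 4 samples examined (9 genes in 4 groups), 1 held a sample far from the others, Cnr2 in Trp53+/+ mock B cells, with its highest sample at 79.4 RPKM against a median of 73.1. Chance alone flags about 1 in 20 such sets.

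The response to IR in B cells differed between Trp53+/+ and Trp53-/- by limma for S1pr1 (-1.07, adjusted p = 0.000177), Cnr2 (-0.53, adjusted p = 0.0100) and Ccr6 (0.43, adjusted p = 0.0472), with 4 and 2 samples a group. S1pr1 was at 27.5 to 35.4 RPKM in all 4 irradiated Trp53+/+ samples and at 66.2 to 68.3 RPKM in both Trp53-/- samples.

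The response of Trp53+/+ cells differed between B and non-B cells by limma for Klf2 (-1.13, adjusted p = 0.000836), S1pr1 (-1.20, adjusted p = 0.00139) and S1pr4 (-1.21, adjusted p = 0.000143), with a lower level in each of the 4 irradiated B cell samples than in any mock B cell sample.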

How the results depend on the processing

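Of 2790 values of single members under the alternatives, 2719 stayed called or stayed uncalled, 31 lost the call, 40 gained it and 0 called values reversed. Changes of direction among uncalled values were not counted, and some occurred. The count of members called in Trp53-/- B cells went from 2 to 4 with the correction for the upper bound on RPKM, chosen after seeing the data. The count for the genotype difference in B cells went from 3 to 5 with quantile scaling, with the silent receptor covariate and without the irradiated Trp53+/+ replicates 1 and 2. The count in Trp53+/+ non-B cells went from 0 to 1 without mock replicates 1 and 2. The cause was not tested.

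Leaving out 1 sample at a time gave 3 to 4 called members in Trp53+/+ B cells, 2 to 3 in Trp53-/- B cells, 1 to 4 for the genotype difference in B cells (1 without Trp53-/- mock replicate 2 or IR replicate 1), 0 to 1 for that in non-B cells (1 without Trp53-/- IR replicate 2), 6 to 7 and 5 to 6 between irradiated B and non-B cells of Trp53+/+ and Trp53-/-, and 3 to 5 for the cell type difference (5 without irradiated non-B replicate 4). With the replicate block the counts were 4, 2, 2 and 0 in B cells (Trp53+/+, Trp53-/-, genotype difference, baseline), 0 in non-B cells, and 3, 6, 3, 3 and 6 between cell types, so the pairing by number removed the call of Ccr6 alone among members and added none. Over all genes, 62 were called in irradiated Trp53-/- non-B cells and 17 with the block, and the block with crossed numbers, chosen after seeing the data because same-numbered samples there deviated in opposite directions, called 152 genes and 1 member in place of 0. In the genotypes at rest, 6 genes were called in non-B cells and 11 with the block. With 2 Trp53-/- samples a group, small genotype differences were not detectable, and for some members larger ones were not excluded.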
